A study of Mus musculus with 7 samples.

Results

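Antioxidant enzymes outside the glutathione transferases were followed in whole mouse hearts by 9 genes with 16 probe sets, out of 22626 probe sets on the array. They were chosen by name: 10 gene symbols (Srxn1, Hmox1, Nqo1, Gclc, Gclm, Sod1, Sod2, Prdx1, Prdx3 and Gpx1), each represented by every probe set that the platform annotation assigns to that symbol alone. Prdx1, a cytosolic peroxiredoxin, was skipped, because its 5 probe sets are each assigned to a further symbol as well. The 7 arrays came from 4 wild-type mice (WT) and 3 mice lacking the transcription factor KLF15 (KLF15-null), a zinc-finger protein of the Krüppel-like family present in heart, muscle and liver. All 7 mice were of the strain given as C57/BL6, labelled male, 3 to 4 months old, and their hearts were collected after 18 h without food. The labels do not say how the null allele was made or whether an array held 1 heart or a pool, so p-values here measure the spread between arrays.

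Superoxide leaks from the respiratory chain and from oxidases, and cells remove it in steps. Superoxide dismutases turn it into hydrogen peroxide, SOD1 in the cytosol and SOD2 in the mitochondrial matrix, and glutathione peroxidases and peroxiredoxins then reduce the peroxide to water. The heart is dense in mitochondria. Glutathione, the electron donor of the glutathione peroxidases, is made by glutamate-cysteine ligase (catalytic subunit Gclc, modifier subunit Gclm). Sulfiredoxin (Srxn1) restores peroxiredoxins that peroxide has over-oxidized. The quinone reductase Nqo1 and the heme-degrading enzyme Hmox1 belong, with Srxn1, Gclc and Gclm, to the textbook targets of the transcription factor NRF2 (gene Nfe2l2), which the adaptor KEAP1 holds in check.

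Array medians lay between 6.22 and 6.33 on the log2 scale. Arrays of one genotype were alike, Pearson's r being at least 0.995 between WT arrays, at least 0.986 between KLF15-null arrays and at most 0.964 across genotypes, over all probe sets. Bright probe sets leaned upward: the median difference of the top 10% was 0.30 (log2, KLF15-null minus WT, as for every difference here), while quantile normalization brought it to 0.01 and cyclic loess normalization to 0.03. Sod1, Sod2, Prdx3 and Gpx1 all have a bright probe set. Klf15 itself read 8.68, 8.98, 8.73 and 9.08 on the WT arrays and 6.52, 6.23 and 6.23 on the KLF15-null arrays, a difference of -2.54 (SE 0.13, limma adjusted p = 1.26e-06; exact permutation p = 0.0286). Which part of Klf15 was removed is not stated in the labels, so the probe set may lie outside it. Its signal was lower on every array labelled KLF15-null than on every array labelled WT. Xist, an RNA made in female cells from their silenced X chromosome, reached the 91.4th percentile of the 7-array mean on the brightest of its 3 probe sets, and the 7 probe sets of Y-linked genes did not exceed the 27.3rd, against the label male on every array. Between genotypes Xist differed by -0.84 on its brightest probe set (limma with no filter, adjusted p = 0.0109). On its dimmest it differed by -0.48 (adjusted p = 0.00107) and on the remaining one by -0.008. The cause of this was not tested. All 8 cardiomyocyte markers (Myh6, Tnnt2 and Ryr2 among them) were measured, their summed signal lay between 16.51 and 16.71 (log2) on all 7 arrays, and none passed the threshold. After cyclic loess normalization 7 of those 8 were lower, and after median centring 3 were higher.

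The comparison asked how these enzymes differed between the genotypes in the fasted heart. The labels give no batch, so a difference in handling between the groups was not tested. In KLF15-null hearts the dismutase genes Sod1 and Sod2 and the sulfiredoxin gene Srxn1 rose on their most responsive probe sets. The rises were 2.63-fold for Sod1, 2.01-fold for Srxn1 and 1.90-fold for Sod2. That of Sod2 was a log2 difference of 0.93, which quantile normalization brought to 0.51. Other probe sets of Sod2 and Srxn1 did not pass, among them the brightest of Sod2 (0.23, limma adjusted p = 0.134) and Srxn1 1419942_at (-0.02). Sod3, a dismutase gene outside the chosen enzymes, fell by 1.27 on the log2 scale. Hmox1 rose 1.76-fold and Gpx1, the cytosolic glutathione peroxidase, 1.34-fold, while Gclm fell by 0.41 on the log2 scale. Gclc, Nqo1 and Prdx3, the mitochondrial peroxiredoxin, had no probe set past the threshold. Above the filter on dim signals lay 15 of the 16 probe sets, and 7 of them rose, 1 fell and 7 missed the threshold of 0.05 (limma, adjusted over all 13576 probe sets tested), while the last, an Srxn1 probe set, was too dim to test. Among all probe sets tested 50.6% passed, 26.8% higher and 23.8% lower, so passing is in itself common in this comparison. The higher-to-lower split was 6 to 2 after quantile and after cyclic loess normalization and 7 to 0 after median centring. Over all probe sets tested it was 3690 to 3493 after quantile, 3518 to 3656 after cyclic loess and 4473 to 2593 after median centring. The median difference of the 15 was 0.23, against 0.00 for all probe sets tested, and it moved with the scaling. After quantile and cyclic loess normalization the middle value of the 15 was that of Srxn1 1419942_at, 0.06 and 0.02. The median of all probe sets tested was then 0.02 and -0.002. On 8 of the 15 the genotypes did not overlap, 6 with KLF15-null above WT and 2 below, against 53.0%, 27.6% and 25.4% of all probe sets tested. The enzymes were chosen with earlier results of these data known, which limits what these comparisons with all probe sets can show. In whole-heart RNA, fewer cells of a type and less RNA per cell cannot be told apart.

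**Figure D1:**
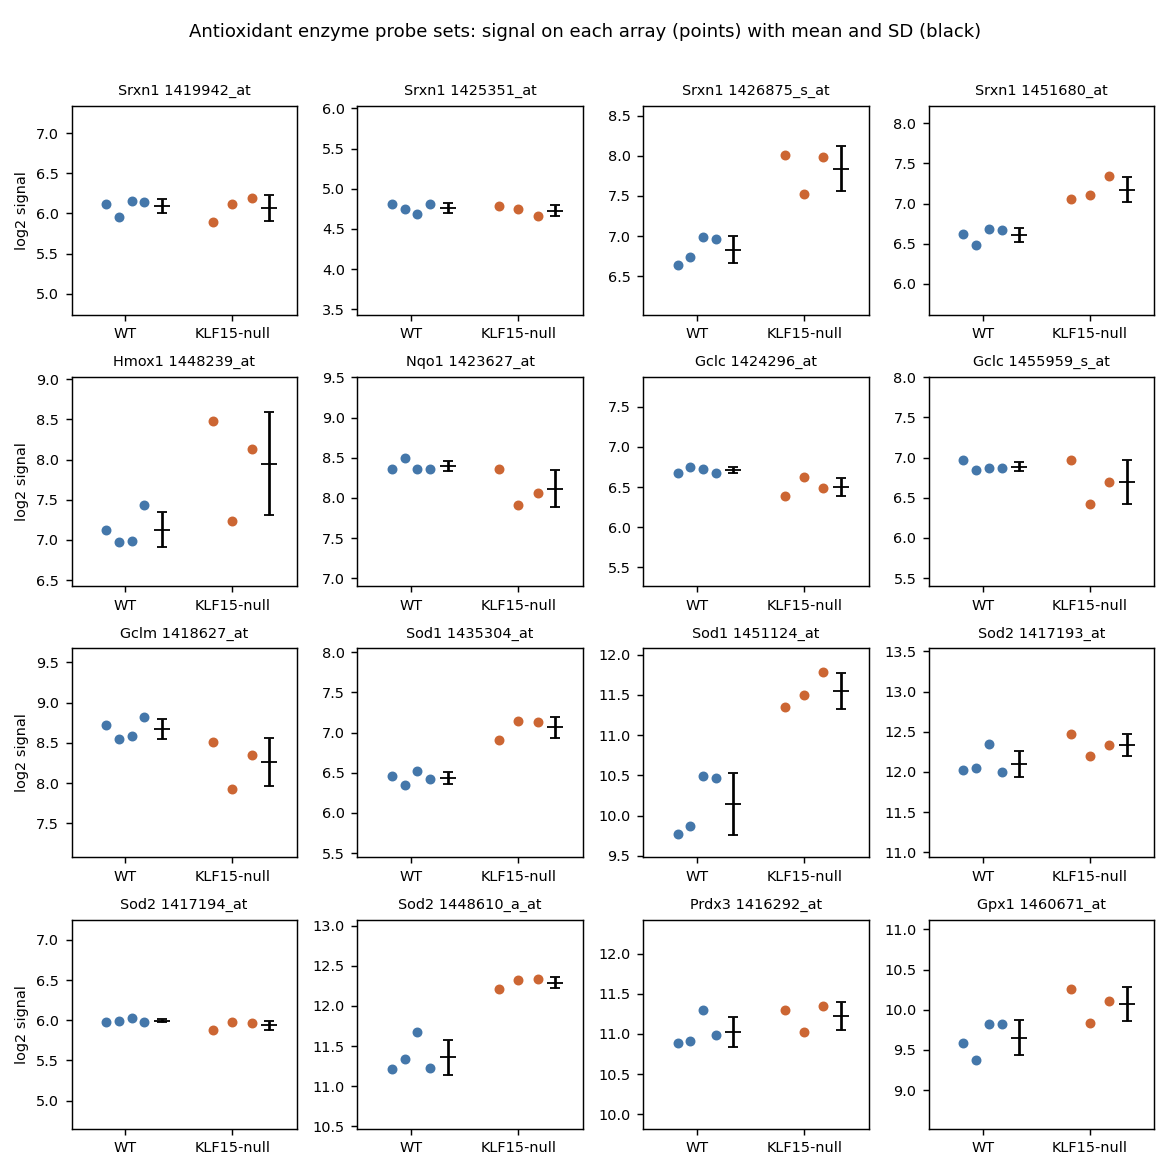
Log2 signal of the 16 probe sets on each array, 4 WT (blue) and 3 KLF15-null (orange), with the mean and SD of each group in black; each panel spans the same 2.6 log2 units around its own values, so the vertical axes start at different levels. On both Sod1 probe sets, on Sod2 1448610_a_at and on Srxn1 1426875_s_at and 1451680_at every KLF15-null point lies above every WT point, and the KLF15-null points of Hmox1 spread widest.

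Sod1, the copper-zinc dismutase of the cytosol, was read by a bright and a dim probe set. On the bright one (1451124_at) the WT arrays read 9.77, 9.86, 10.49 and 10.47 and the KLF15-null arrays 11.35, 11.50 and 11.79. WT arrays 1 and 2 were lower than WT arrays 3 and 4, and the lowest KLF15-null array stood above the highest WT array. The means were 10.15 ± 0.39 (SD, n = 4) and 11.55 ± 0.23 (SD, n = 3), a difference of 1.40 (SE 0.21, limma adjusted p = 0.000376). On the dim one (1435304_at) the values were 6.46, 6.35, 6.52 and 6.42 in WT and 6.91, 7.14 and 7.14 in KLF15-null hearts. The groups were again apart, by a smaller difference of 0.63 (SE 0.09, adjusted p = 0.000328). For each of the 2 probe sets the exact permutation p was 0.0286, the smallest that 35 relabellings of the arrays allow.

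Sod2, the manganese dismutase of mitochondria, gave a different answer on each of its 3 probe sets. On 1448610_a_at the WT arrays read 11.21, 11.33, 11.68 and 11.22 and the KLF15-null arrays 12.21, 12.33 and 12.33. The KLF15-null arrays lay close together (SD 0.07, n = 3) and above all WT arrays, a rise of 0.93 (SE 0.13, adjusted p = 0.000304). Quantile normalization brought this rise to 0.51 and cyclic loess to 0.58, both past the threshold. On the brightest, 1417193_at, the values were 12.02, 12.04, 12.34 and 12.00 in WT and 12.47, 12.20 and 12.34 in KLF15-null hearts. Here the groups overlapped and the difference of 0.23 (95% interval -0.04 to 0.50, adjusted p = 0.134) did not pass. That value turned to -0.14 after quantile and -0.15 after cyclic loess normalization, and it passed at 0.31 without WT array 3 (adjusted p = 0.0222). The third probe set, 1417194_at, lay near the filter level of 5.74, between 5.98 and 6.03 in WT and between 5.87 and 5.98 in KLF15-null hearts, with a difference of -0.06 (adjusted p = 0.530). The deposited table does not say which part of the transcript each probe set reads.

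Srxn1 had 4 probe sets, of which 2 rose. On 1426875_s_at the WT arrays read 6.64, 6.74, 6.98 and 6.96 and the KLF15-null arrays 8.01, 7.52 and 7.99. All KLF15-null arrays were above all WT arrays, and the difference was 1.01 (SE 0.14, adjusted p = 0.000304). On 1451680_at the values were 6.62, 6.49, 6.68 and 6.67 in WT against 7.06, 7.11 and 7.35, a rise of 0.56 (SE 0.10, adjusted p = 0.00102). The other two showed no rise: 1419942_at had means of 6.09 ± 0.09 (SD, n = 4) and 6.07 ± 0.16 (SD, n = 3), a difference of -0.02 (95% interval -0.24 to 0.19), and 1425351_at, below the filter level, 4.76 ± 0.06 (SD, n = 4) and 4.73 ± 0.07 (SD, n = 3). The probe set that rose most ends in _s_at, a suffix for probes that can match transcripts of more than 1 gene, while 1451680_at carries the plain suffix.

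The stretches before the transcription start of the 3 genes with the largest rises are shown. These genes share a direction on their most responsive probe sets, and belong to different compartments and textbook regulons. They are RefSeq sequences of build GRCm38.p6, the 250 bases ending at the base before the start, all on the plus strand: Srxn1 at chr2:152105274-152105523, Sod1 at chr16:90220512-90220761 and Sod2 at chr17:13007589-13007838. Capitals mark matches on either strand to the antioxidant response element core TGACNNNGC, to its other spelling TGAGNNNGC, or to the Krüppel-like factor core CACCC.
Srxn1: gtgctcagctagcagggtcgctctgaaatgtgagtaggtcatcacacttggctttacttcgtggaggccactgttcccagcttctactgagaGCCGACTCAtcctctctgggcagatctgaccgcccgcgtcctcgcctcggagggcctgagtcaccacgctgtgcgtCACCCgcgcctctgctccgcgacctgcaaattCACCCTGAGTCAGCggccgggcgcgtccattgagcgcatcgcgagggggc
Sod1: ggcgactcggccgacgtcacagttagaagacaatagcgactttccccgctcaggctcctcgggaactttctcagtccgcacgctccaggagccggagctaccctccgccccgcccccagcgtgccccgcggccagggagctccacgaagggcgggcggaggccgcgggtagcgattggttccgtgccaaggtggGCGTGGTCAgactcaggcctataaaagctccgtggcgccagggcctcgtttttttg
Sod2: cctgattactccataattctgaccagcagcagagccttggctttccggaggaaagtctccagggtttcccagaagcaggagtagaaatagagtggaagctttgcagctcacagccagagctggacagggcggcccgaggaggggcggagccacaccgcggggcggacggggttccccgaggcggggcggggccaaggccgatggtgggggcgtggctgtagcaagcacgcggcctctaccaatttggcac

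Srxn1 held 2 CACCC matches, which began 82 and 50 bases before the start, and TGAGTCAGC directly after the second of them, 45 bases before the start. A further TGAGNNNGC match lay on the other strand 158 bases before the start. Its only match to TGACNNNGC lay 29 bases into the transcript, outside the stretch printed. Sod1 held 1 TGACNNNGC match, on the other strand and beginning 56 bases before the start, and no match was found in Sod2. RefSeq promoters were found for 7 of the 9 genes, not for Gclc and Hmox1. In windows of 300 bases, 250 before and 50 after the start, TGACNNNGC was found in 3 of the 7 (Srxn1, Gclm and Sod1) and in 12.4% of all 32851 promoters. In the 250 bases before the start alone it was found in 2 of the 7 and in 10.2% of all. The members are counted by gene, whereas the shares of all are by promoter. TGAGNNNGC, a spelling added after the sequences were seen, was found in 1 of the 7 and in 17.6% of all. CACCC was found in 4 of the 7 (Srxn1, Gclm, Gpx1 and Prdx3) and in 57.5% of all. A match describes letters and is not a site, and distal sequence was not searched.

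Hmox1, the inducible heme oxygenase, which breaks heme down to biliverdin, iron and carbon monoxide, had the widest spread among KLF15-null arrays. The WT arrays read 7.12, 6.97, 6.99 and 7.43 and the KLF15-null arrays 8.48, 7.23 and 8.13. KLF15-null arrays 1 and 3 lay above all WT arrays, and array 2 lay inside the WT range. The means were 7.13 ± 0.21 (SD, n = 4) and 7.95 ± 0.64 (SD, n = 3), a rise of 0.82 (SE 0.26, limma adjusted p = 0.0237, exact permutation p = 0.0571). Without KLF15-null array 2 the rise was 1.17 (adjusted p = 0.00032). Without KLF15-null array 1 it was 0.55 (adjusted p = 0.0833) and without array 3 0.73 (adjusted p = 0.0940), and it also missed the threshold without WT array 1, 2 or 3, with an adjusted p of 0.0530, 0.0608 and 0.0637. Some markers of blood-derived cells were higher as well. Of 6 measured neutrophil markers 3 were higher (S100a8, S100a9 and Lcn2) and none lower. The summed signal of the 6 lay between 8.97 and 9.28 (log2) in WT and at 11.35, 10.04 and 11.12 on KLF15-null arrays 1, 2 and 3. Of these 3 arrays, array 2 was lowest, as it was on 44.9% of all probe sets tested. Lcn2 read 10.70, 8.16 and 10.38 on the same 3 arrays, and made up most of the sum on arrays 1 and 3. Its WT mean of 5.62 lay below the filter level, so it was tested only through its KLF15-null values. Elane, Cxcr2 and Csf3r differed by -0.17, -0.15 and -0.05, none past the threshold. Of 11 macrophage and monocyte markers 4 were higher (Ptprc, Cd14, Lyz2 and Csf1r) and 2 lower (C1qa and C1qb), the sum lying between 11.48 and 12.23 in WT and at 12.70, 12.56 and 12.22 on KLF15-null arrays 1, 2 and 3, where array 3 and not array 2 was lowest. Their part in the result was not tested.

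All 3 probe sets of glutamate-cysteine ligase had a negative difference, and that of Gclm passed. Gclm, the modifier subunit, read 8.72, 8.55, 8.58 and 8.82 in WT and 8.51, 7.92 and 8.35 in KLF15-null hearts. All KLF15-null arrays were below all WT arrays, array 2 farthest, and Gclm fell by 0.41 (SE 0.15, adjusted p = 0.0427). The call was near the threshold: without KLF15-null array 2 the difference was -0.24 (adjusted p = 0.0977), and it was also lost without KLF15-null array 3, without any 1 of the 4 WT arrays, and after median centring (-0.32, adjusted p = 0.0981). With the replicate number as a block the value was -0.36 (adjusted p = 0.0851). No KLF15-null array shares the number of WT array 4, so that array did not enter this value, which was the same without WT array 4. With no filter on dim probe sets the adjusted p was 0.0552. Gclc, the catalytic subunit, read 6.68, 6.75, 6.73 and 6.68 in WT and 6.39, 6.62 and 6.49 in KLF15-null hearts on 1424296_at. These groups did not overlap either, and the difference of -0.21 (95% interval -0.39 to -0.02) had an adjusted p of 0.0591, and it passed when KLF15-null array 2 was left out, at -0.27 (adjusted p = 0.0182). On 1455959_s_at the difference was -0.19 (95% interval -0.46 to 0.09, adjusted p = 0.231), with KLF15-null array 1 at 6.97, level with the highest WT array; without that array it was -0.32 (adjusted p = 0.0279). Of 8 endothelial markers 3 were lower (Pecam1, Emcn and Tie1) and none higher. Eng and Cdh5 differed by -0.52 and -0.14, and Kdr, Vwf and Tek by 0.46, 0.32 and 0.02, none past the threshold. Without KLF15-null array 2 the list had 2 higher and 3 lower, and after median centring 1 and 3. The summed signal lay between 11.42 and 11.73 (log2) in WT and at 11.44, 10.76 and 11.34 on KLF15-null arrays 1, 2 and 3. Array 2 was also the lowest of these 3 on 44.9% of all probe sets tested. Of 8 fibroblast markers 2 were lower (Dcn and Lum) and 1 higher (Pdgfra), the sums lying between 12.49 and 13.35 in WT and between 12.27 and 12.47 in KLF15-null hearts. Their part in the fall of Gclm was not tested.

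Nqo1, which reduces quinones without passing through a radical, read 8.36, 8.50, 8.36 and 8.36 in WT and 8.36, 7.91 and 8.07 in KLF15-null hearts. KLF15-null arrays 2 and 3 lay below all WT arrays, and array 1 equalled 3 of the WT arrays. The difference of -0.28 (95% interval -0.56 to -0.01, adjusted p = 0.0766) did not pass as deposited. It passed once quantile normalized at -0.29 (adjusted p = 0.0314), under cyclic loess at -0.31 (adjusted p = 0.0246), and without KLF15-null array 1 at -0.41 (adjusted p = 0.00996). The value 8.36 was the same to the last deposited digit on 4 of the 7 arrays. Such exact repeats are common in the table, where 47.3% of all probe sets have a value that occurs on at least 2 arrays, and they were found on 5 of the 16 probe sets described here.

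Of the peroxide-removing enzymes, Gpx1 rose and Prdx3 did not pass the threshold. Gpx1 read 9.59, 9.38, 9.82 and 9.82 in WT and 10.26, 9.84 and 10.11 in KLF15-null hearts, so that KLF15-null array 2 only just exceeded the highest WT arrays. The rise was 0.42 (SE 0.15, adjusted p = 0.0432). Quantile normalization left 0.18 (adjusted p = 0.278) and cyclic loess 0.21 (adjusted p = 0.186), and the rise missed the threshold without WT array 1 or 2 or without KLF15-null array 1 or 3. With no filter on dim probe sets its adjusted p was 0.0545. Prdx3 read 10.89, 10.92, 11.30 and 10.99 in WT and 11.30, 11.02 and 11.35 in KLF15-null hearts. The groups overlapped, and the difference was 0.20 (95% interval -0.11 to 0.51, adjusted p = 0.248). After quantile and cyclic loess normalization it turned to -0.20 and -0.10, neither past the threshold. With array weights it was 0.35 and passed (adjusted p = 0.0106).

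**Figure D2:**
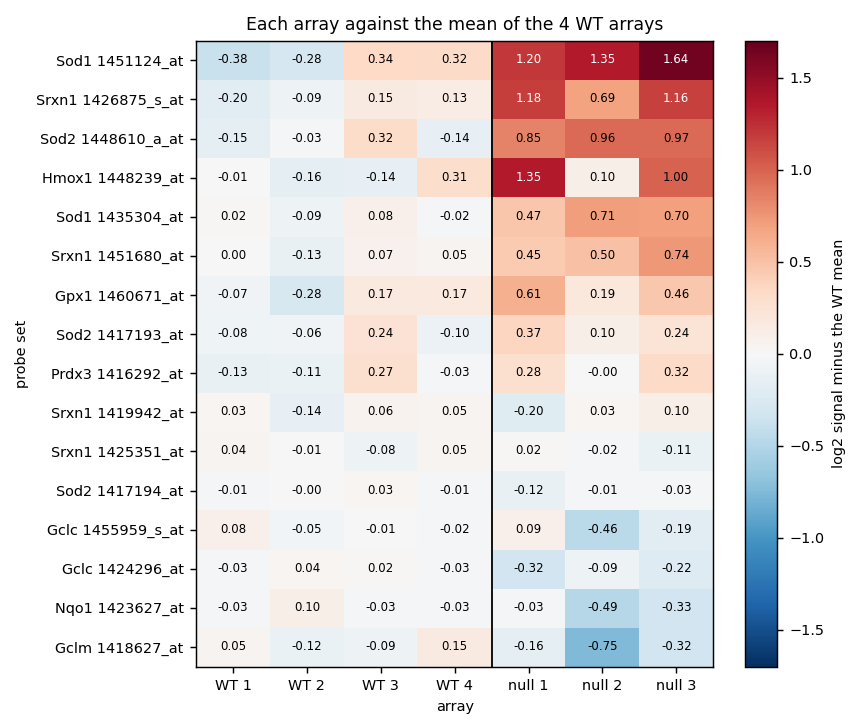
Log2 signal of each probe set on each array minus the mean of its 4 WT arrays, ordered by the genotype difference, with WT 1 to 4 left and KLF15-null arrays 1 to 3 (null) right of the line. KLF15-null array 2 holds the lowest of the 3 KLF15-null values for Hmox1 (0.10, below the other 2) and for Gclm (-0.75 against -0.16 and -0.32), but not for Sod1 or Sod2 1448610_a_at.

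KLF15-null array 2 was the lowest of the KLF15-null arrays on 8 of the 16 probe sets, array 1 on 7 and array 3 on 1. Over all probe sets tested the shares were 44.9%, 30.6% and 24.5%. The 5 probe sets of Sod1, Srxn1 and Sod2 with the smallest p passed the threshold in every alternative in which they were tested, 15 for Sod1 1451124_at, Sod2 1448610_a_at and Srxn1 1426875_s_at and 14 for Sod1 1435304_at and Srxn1 1451680_at. Their sizes moved with the scaling: quantile normalization gave 1.05 for Sod1 1451124_at, and cyclic loess gave 1.12. The Srxn1 values, from dimmer probe sets, were 1.06 and 1.05 for 1426875_s_at and 0.63 and 0.62 for 1451680_at.

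**Figure D3:**
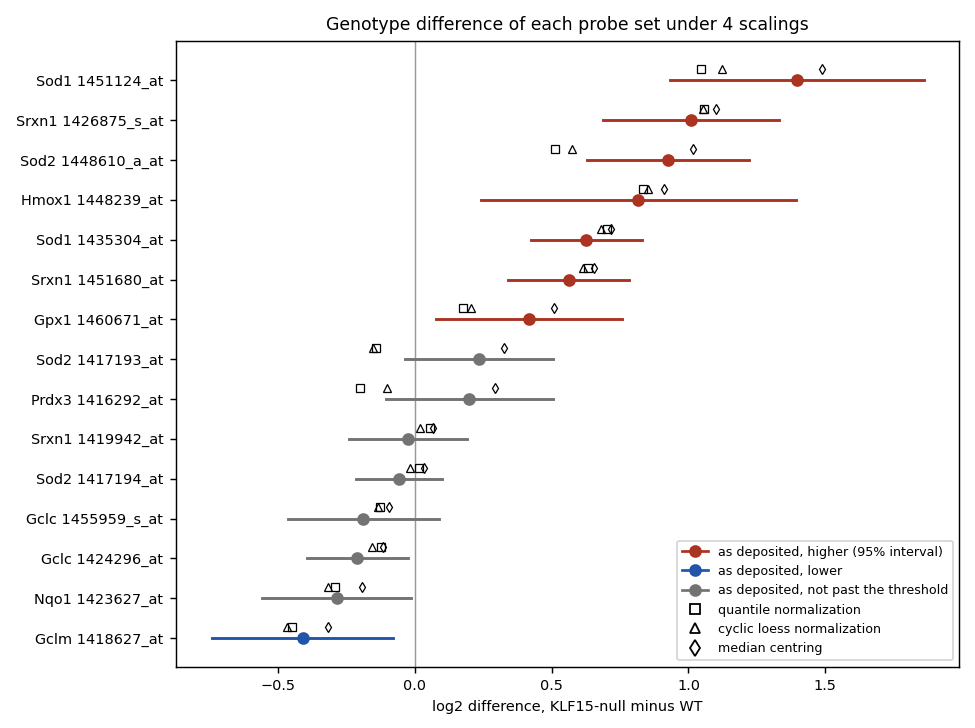
Log2 difference (KLF15-null minus WT) of the 15 probe sets tested, with its 95% interval from limma on the deposited values, and the same difference after 3 other scalings (open symbols). The bright probe sets of Sod1, Sod2, Prdx3 and Gpx1 shift to the left after quantile and cyclic loess normalization, and those of Prdx3 and Sod2 1417193_at cross 0.

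Genes around these enzymes moved in both directions. In 7 lists of related genes 68 had a probe set tested, of which 22 passed upward, 11 downward and 35 missed the threshold, with a median difference of 0.07. Of all 8404 genes tested 46.9% passed, 27.4% higher and 19.6% lower, with a median of 0.02. The split in the lists was 21 to 19 after quantile, 22 to 20 after cyclic loess normalization and 25 to 7 after median centring. The share of higher calls among all probe sets called was then 51.4%, 49% and 63.3%.

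The supply of NADPH, which recharges glutathione and thioredoxin, held the largest rises. Among 10 genes 5 passed upward and 1 downward (Nnt, the mitochondrial transhydrogenase, at -0.59, named after its value was seen), leaving 4 that missed the threshold, and after quantile or cyclic loess normalization 5 were higher and 3 lower. Pgd, an oxidative pentose phosphate enzyme that makes NADPH, rose by 1.98 (SE 0.13, adjusted p = 3.27e-06), and its other 3 probe sets rose by 0.53, 2.17 and 2.18. The 3 larger values come from _x_at probe sets, a suffix for probes that may cross-hybridise, and 0.53 from the remaining one. Tkt and Taldo1 of the non-oxidative branch rose by 1.75 and 0.56, the Tkt rise coming from an _x_at probe set, and a second Tkt probe set differed by 0.32 (adjusted p = 0.0759). Mthfd2, a mitochondrial folate enzyme, rose by 0.69 from a WT mean of 5.71, below the filter level, so it was tested only through its KLF15-null values. Its second probe set, with a 7-array mean below the filter level, differed by 0.16.

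Of 10 other genes of glutathione synthesis and recycling 3 passed upward, 1 downward and 6 missed the threshold. After median centring the split was 5 to 0, and averaging the probe sets of each gene gave 3 to 3. Glrx2, the mitochondrial glutaredoxin, rose by 0.83 and on its other probe sets differed by 0.34 and 0.23, the last not past the threshold. Slc3a2, the heavy chain of the cystine-glutamate exchanger, rose by 0.80 and Chac1, which degrades glutathione, by 0.69. Oplah, which returns oxoproline to glutamate, fell by 0.58 (adjusted p = 0.0404), the call being lost without WT array 1, 2 or 3, without KLF15-null array 2 and after median centring.

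Other dismutases, peroxidases and repair enzymes had 2 of 15 genes past the threshold upward, 3 downward and 10 short of it, and 1 higher with 5 lower after quantile and 6 lower after cyclic loess normalization. Sod3, the extracellular dismutase, fell by 1.27 (SE 0.14, adjusted p = 7.91e-05), where both Sod1 probe sets rose and, of the 3 of Sod2, only 1448610_a_at. Its second probe set, below the filter level, differed by -1.07. Gpx3, the secreted glutathione peroxidase, fell by 0.81 (adjusted p = 0.0272, lost without WT array 3 or 4 or KLF15-null array 2). Cat, the peroxisomal catalase, rose by 0.85 on 1 probe set, which became 0.47 after quantile and 0.55 after cyclic loess normalization, and differed by -0.34 on the other. Gpx4, which reduces lipid peroxides, rose by 0.57 on an _x_at probe set, did not pass after quantile or cyclic loess normalization, and differed by -0.50 on its second, which did not pass. In heme and iron handling 2 of 6 genes passed upward, 1 downward and 3 missed the threshold, and after quantile normalization 1 was higher and 2 lower. Fth1, the ferritin heavy chain, fell by 0.74 on an _s_at probe set (by 1.22 under cyclic loess) and differed by 0.20 on its other. Tfrc, the transferrin receptor, rose by 0.71 on the brightest of 3 probe sets (lost without KLF15-null array 1), the second differing by 0.01 and the third lying below the filter level. Hmox2, the constitutive heme oxygenase, rose by 0.41, and by 0.21 (adjusted p = 0.0676) once quantile normalized and by 0.23 under cyclic loess; the call was lost without WT array 1 or KLF15-null array 3. Slc40a1, the iron exporter, differed by -0.24 on its brightest probe set and fell by 1.49 on the other.

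**Figure D4:**
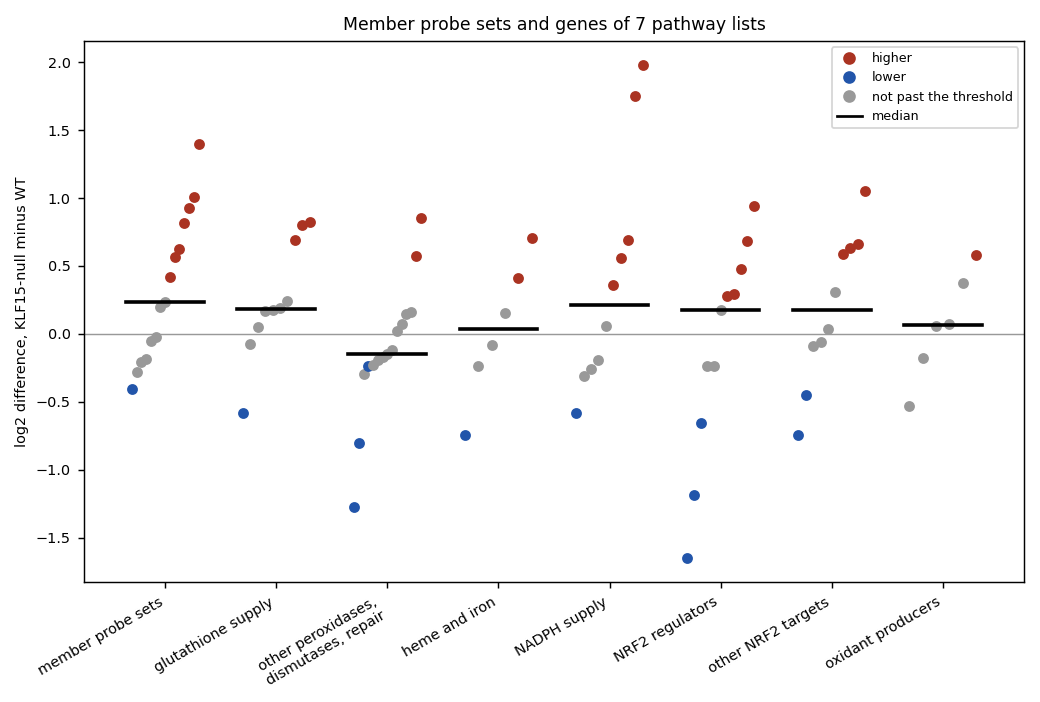
Log2 difference (KLF15-null minus WT) of the 15 probe sets tested for the antioxidant enzymes and of the 68 genes of the 7 related lists, each gene by its probe set with the highest 7-array mean; the black line is the median. Rises and falls occur in 6 of the 7 lists, and the 2 highest points in the NADPH list are Pgd and Tkt.

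Around NRF2 11 genes were measured, 5 passing upward, 3 downward and 3 missing the threshold. The split was 5 to 5 after quantile and cyclic loess normalization, where the list's median turned from 0.18 to -0.05 and -0.02. Nfe2l2 itself differed by 0.18 (95% interval -0.14 to 0.49, adjusted p = 0.320), and by -0.05 after quantile normalization. Keap1 differed by -0.24 (adjusted p = 0.0653) on its brighter probe set and passed at -0.29 once quantile normalized (adjusted p = 0.0311) and at -0.30 under cyclic loess (adjusted p = 0.0314). Its dimmer probe set, below the filter level, differed by -1.43. Bach1, a repressor that competes with NRF2 for its sites, rose by 0.48 on its brighter probe set and differed by -0.55 on one below the filter level. Bach2, its relative, fell by 1.65, its KLF15-null mean of 5.28 lying below the filter level. The small MAF genes Mafk and Maff, whose proteins pair with NRF2 and BACH1, rose by 0.94 and 0.68, and Sqstm1, which sequesters KEAP1 and is an NRF2 target too, fell by 1.18.

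Among 10 other NRF2 targets 4 passed upward, 2 downward and 4 missed the threshold, and after median centring 5 and 1. Ugdh, which makes UDP-glucuronate, rose by 1.05, the aldo-keto reductase gene Akr1b8 by 0.66, and Abcc1, an exporter of glutathione conjugates, by 0.63, and a second Abcc1 probe set below the filter level differed by -0.93. Ces1d, a carboxylesterase, gave opposite answers: its brightest probe set fell by 0.75, and it rose by 0.79 and 0.48 on its other 2. Of 6 oxidant-producing genes 1 was higher and none lower (limma; 1, Xdh, was lower at an unadjusted p under 0.05), while after quantile and cyclic loess normalization 1 was higher and 1 lower. Ncf4, a phagocyte NADPH oxidase subunit, rose by 0.58 from a WT mean of 5.74, at the filter level. Xdh, xanthine dehydrogenase, differed by -0.53 (adjusted p = 0.0606), Cyba by 0.38 and Rac2 by -0.18, the latter pair also subunits or partners of that oxidase.

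The profiles most like that of Sod1 1451124_at over the 7 arrays, each centred on its own mean, were those of Fstl1, Cox6c and Hnrnpa2b1, with a root mean square difference of 0.13, 0.14 and 0.15 on the log2 scale and genotype differences of 1.51, 1.23 and 1.44. Those most like Gclm were Itsn2, Cast and Dpm2, with a root mean square difference of 0.05, 0.06 and 0.06 and genotype differences of -0.38, -0.48 and -0.37.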

How the data were processed

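Heart RNA was extracted with Trizol, checked on a Bioanalyzer, labelled with a one-cycle 3' kit and hybridised to Affymetrix arrays, per the labels' protocols, and the submitters' processing notes name GCOS. The deposited values are log2 signals, 1 column per array. The sources used here do not say how the authors summarised or normalized them, so they were used unscaled. Probe sets below the 40th percentile of the 7-array mean (log2 5.74) were left out of the test, and 13576 of 22626 stayed. KLF15-null was compared with WT in limma 3.58.1 (R 4.3.3; lmFit, eBayes with an intensity trend), with Benjamini-Hochberg adjustment over all of them and a threshold of 0.05. Single values also had an exact two-sided permutation test over the arrays. Their number limits the precision.

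Of all probe sets 20380 had 1 symbol in the platform annotation, 691 several and 1555 none. Named were every probe set of the enzymes, up to 4 genes per list with the smallest p, Klf15, Nfe2l2, Keap1 and Bach1, and the 3 genes closest in profile to the largest rise and fall. A list gene was represented by its probe set with the highest 7-array mean. The enzymes and the lists were chosen with earlier results of these data known. Alternatives were other filters and scalings, no trend, array weights, a replicate block and each array left out. Same-numbered arrays deviated with correlations of -0.11, 0.00125 and 0.185, so the numbers were not taken to pair them.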

Additional observations from a re-analysis of the deposited data

Results flagged for a closer look

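Within the 4 WT arrays, 3 probe sets had 1 array apart from the rest, by its gap to the nearest array as a share of the group's range (above Dixon's 95% critical value). Chance alone sets about 1 group in 20 apart in this way. For Nqo1 1423627_at WT array 2 was high, with a share of 1, because the other 3 WT values were identical. For Sod2 1417193_at WT array 3 was high, with a share of 0.869. For Srxn1 1419942_at WT array 2 was low, with a share of 0.839.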

How the results depend on the processing

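Against 8 probe sets of the antioxidant enzymes past the threshold, leaving out 1 array gave between 5 and 8, the count being 5 without WT array 1, without WT array 2 or without KLF15-null array 3. These were not always the same probe sets: of the original 8 calls between 5 and 7 passed, those of Hmox1, Gclm and Gpx1 being lost at times and others gained. Of all probe sets tested between 5900 and 7068 passed with 1 array left out, against 6872 with all arrays. With no filter 6 passed, Gclm and Gpx1 being lost, and of all 22626 probe sets 8013 passed. With 1 probe set a gene, the brightest, 5 passed, an alternative chosen after seeing the data. With array weights 12 passed, 9 higher and 3 lower, and of all 13576 probe sets tested 8800 passed, against 6872 without weights. With the replicate number as a block 7 passed, of all probe sets 5768 against 6872, and of the genes in the related lists 27 against 33. Of the enzymes' calls the block changed that of Gclm. WT array 4, whose number no KLF15-null array shares, did not enter the differences under this block. Each array centred on its median moved the share of higher calls among all probe sets from 52.9% to 63.3%. Signs reversed for probe sets that had not passed. Prdx3 was -0.20 after quantile and -0.10 after cyclic loess normalization, and Sod2 1417193_at -0.14 and -0.15. Sod2 1417194_at was 0.016 after quantile normalization and 0.036 after median centring. Srxn1 1419942_at was 0.058 after quantile normalization, 0.018 after cyclic loess normalization, 0.067 after median centring and 0.089 with array weights, and lay between -0.086 and 0.064 with 1 array left out. The cause was not tested. The core TGACNNNGC was found in 3 genes, or 2 before the start site alone, and its other spelling TGAGNNNGC in 1. CACCC was found in 4 genes, or 2 before the start site alone. Signal over background is not given for these arrays, which limits what the dim probe sets can show.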

Other observations

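Genes of the related lists that passed the threshold but were not named above are given here, chosen after their values were seen. Mafg, the third small MAF gene, rose by 0.30, Dpp3, a peptidase that binds KEAP1, by 0.28, and Nfe2l1, a relative of Nfe2l2, fell by 0.66. Cbr3, a carbonyl reductase, rose by 0.59 and Ephx1, the microsomal epoxide hydrolase, fell by 0.45. Nadk, the kinase that makes NADP from NAD, rose by 0.36, and Sesn2, a sestrin, fell by 0.24. Of the 8 erythroid markers 2 were measured and neither passed the threshold.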
